A study of Mus musculus with 9 samples.

Results

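The comparison of Adeno-Nrf2 with Adeno-LacZ took in every gene of the authors' table for this pair of viruses, which lists 14986 genes of the 15146 distinct symbols found over the 3 tables of the series. The cells were neonatal rat ventricular myocytes (NRVMs), heart muscle cells isolated from Sprague Dawley rats aged 1 or 2 days and kept in dishes for 48 h before infection. They were infected at a multiplicity of infection (MOI, infectious virus particles per cell) of 50 with an adenovirus for mouse Nrf2 or, as the control, for the bacterial enzyme LacZ, and RNA was collected 48 h later. The 3 libraries of each group make up 6 of the 9 samples of the series, and the other 3 came from NRVMs infected with Adeno-Nrf1. Both inserts were driven by the CMV promoter, which is active in most cell types, in a vector that also carries a red fluorescent protein. Uninfected cells were not among the groups used here, and the organism field of the labels reads Mus musculus although the strain, the cell type and the genome used are those of rat.

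Nrf2, encoded by *Nfe2l2*, is a transcription factor of the cellular stress response. In unstressed cells Keap1, the substrate adaptor of a Cul3 ubiquitin ligase, holds Nrf2 and marks it for degradation by the proteasome. When oxidants or electrophiles modify Keap1, Nrf2 accumulates, joins small Maf proteins and binds antioxidant response elements at genes for glutathione, thioredoxin, NADPH, detoxification and iron. In the heart the pathway is known for limiting oxidative injury.

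The table gives for each gene the mean over a group's libraries of read counts divided by size factors, called normalized counts here. Each mean split into whole reads of single libraries in only 1 way for 14980 genes, so values per library could be recovered. The recovered libraries carry no replicate number and are lettered a, b and c within a group from the deepest to the shallowest. LacZ a, b and c held 9367392, 8236160 and 7891733 reads in genes, and Nrf2 a, b and c held 11930719, 11328513 and 10170455. Between 13617 and 13973 genes had a read in a library.

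LacZ b stood apart from LacZ a and LacZ c in genes of the immune response and was the lowest LacZ library in sarcomere genes. Normalized counts summed over 29 leukocyte markers were 5644 in LacZ b, against 3852 in LacZ a and 3877 in LacZ c. For 19 complement and acute phase genes the sum was 5525 in LacZ b, against 3552 and 4129. Results on these groups are therefore given with and without LacZ b. The labels do not say that the libraries came from separate cultures, so p-values measure only the spread between these samples, which may be technical.

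The culture carried the genes of its label. The 7 cardiomyocyte markers *Myh6*, *Myh7*, *Tnnt2*, *Tnni3*, *Actc1*, *Actn2* and *Ryr2* summed to 130410.3, 112845 and 122567 normalized counts in LacZ a, b and c and to 139935, 142289 and 138932 in Nrf2 a, b and c. None of the 7 rose or fell under the calls defined with the counts of genes, at a median log2 ratio of 0.26, and by limma's adjusted p 6 of them were higher and 1 was lower at a smaller fold. *Myh6*, the fast myosin heavy chain of adult rat ventricle, had 8183, 9111 and 8532 normalized counts in LacZ and 10537, 10695 and 9656 in Nrf2. *Myh7*, the slow myosin heavy chain, had 16435, 14314 and 15519.5 in LacZ and 12754, 12900.4 and 12855 in Nrf2. Fibroblast, endothelial, smooth muscle and leukocyte genes were also present in every library, and their levels are given with the immune and matrix genes.

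*Nfe2l2* had 3486, 3425 and 3513 normalized counts in LacZ a, b and c and 79249, 77916 and 68031 in Nrf2 a, b and c. The groups lay far apart, and Nrf2 c was the lowest of the Nrf2 libraries. The authors' means of 3475 and 75066 differ 21.6-fold (limma, adjusted p = 3.67e-17). Its share of all reads in genes was 0.0369%, 0.0368% and 0.0373% in the LacZ libraries and 0.797%, 0.781% and 0.682% in the Nrf2 libraries. Reads of the viral insert cannot be told apart from reads of the cells' own gene.

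Across the table, changes of 4-fold or more were mostly increases. At the lower fold used for calls, the more numerous direction depended on the minimum mean. Fallen genes led there under each scaling of the means that was run. A ratio of means of at least 1.5 in either direction was taken as past the fold, and 10673 genes had an average of both group means of at least 20 and were counted. Of these, 907 were past the fold with a higher mean in Nrf2 (8.50%) and 982 with a lower mean (9.20%). Reads were recovered for 10669 of them, and genes past the fold that also had a Benjamini-Hochberg adjusted p under 0.05 by limma with voom weights are called risen or fallen. By that rule 886 genes rose (8.30%) and 949 fell (8.89%), while 21 higher and 33 lower genes past the fold were not called. With means scaled to equal sums 746 rose and 1105 fell. At a minimum average of 100 instead of 20, 601 rose and 513 fell. The median log2 ratio of the genes counted was 0.00. At a fold of 2 or more the called genes were 374 risen and 360 fallen, at 4 or more 129 and 22, and at 8 or more 44 and 1. Of the 886 and 949 calls, 713 and 717 were also made with each library left out in turn. With no fold required limma called 3045 of the 10669 genes higher and 2754 lower, the background for such counts in lists. The groups did not overlap in 6736 genes, so separate groups alone do not set a gene apart.

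**Figure D1:**
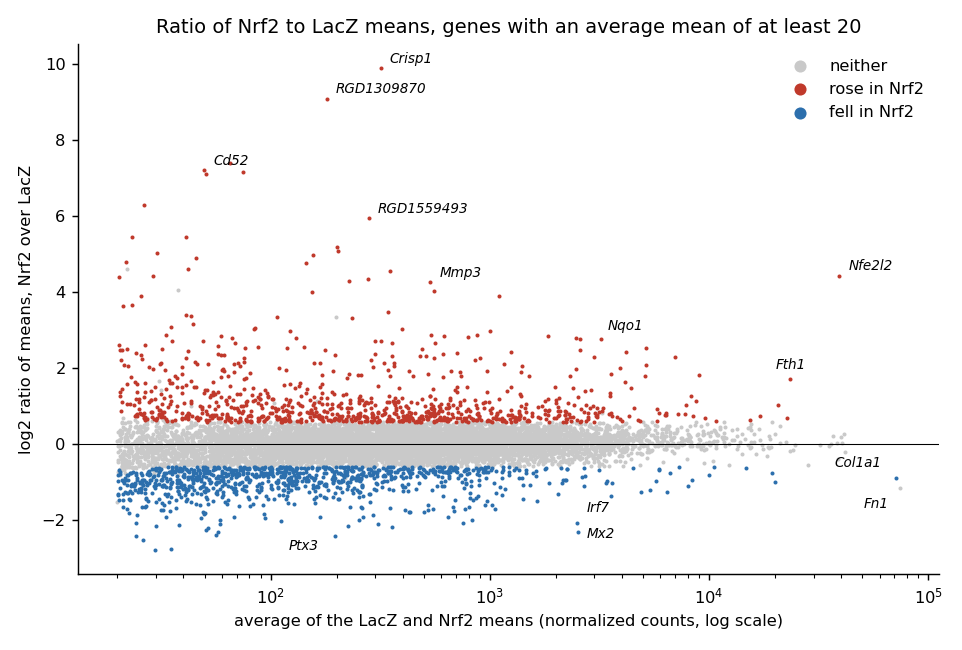
Log2 ratio of the Nrf2 mean to the LacZ mean against the average of both means (normalized counts, log scale) for genes with an average of at least 20, with 1 dot per gene, red for risen genes, blue for fallen genes and grey for the rest; tested genes with a mean of 0 in a group have no ratio and are not drawn. *Crisp1*, at a log2 ratio of 9.88, is the highest dot, the blue dots end above -3, and *Fn1* is grey because its reads could not be recovered.

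Among genes with an average mean of at least 100, the highest ratios were mostly those of genes with few reads in LacZ. *Crisp1*, which encodes a secreted protein best known from the epididymis, had 2.02, 0 and 0 normalized counts in LacZ and 638, 582 and 684 in Nrf2. *RGD1309870*, a gene with no established name, had 2.02, 0 and 0 in LacZ and 362, 364 and 359 in Nrf2. No LacZ library came near an Nrf2 library in either gene. The next genes by ratio were *RGD1559493* (61.6-fold), *Tmem200c* (35.9-fold), *Rbm11*, an RNA-binding splicing factor (33.9-fold), *Cym*, the gastric protease chymosin (31.1-fold), and *Akr7a3*, an aflatoxin aldehyde reductase (27.0-fold). *Elmod1*, *Nfe2l2* and *Slc10a4* completed the highest 10, with *Elmod1* at 28.3, 27.1 and 29.8 normalized counts in LacZ and 613, 707 and 691 in Nrf2. These genes were chosen by their ratio, so their differences are a description and no p-value is drawn from them.

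The largest gains in normalized counts, which are not corrected for gene length, were those of *Nfe2l2*, *Fth1*, *Acta1*, *Rtn4* and *Maoa*. *Fth1*, the heavy chain of the iron store ferritin, had 11609.6, 10479 and 10922 normalized counts in LacZ and 36031, 35865 and 35682 in Nrf2, a 3.26-fold rise (adjusted p = 2.34e-16). *Acta1*, skeletal alpha-actin, rose 2.03-fold from an authors' mean of 13636 to 27699.8. *Rtn4*, which encodes the endoplasmic reticulum shaping protein Nogo, rose 1.61-fold, and *Maoa*, the mitochondrial monoamine oxidase A, rose 3.54-fold from 3984 to 14105. Each of these genes was higher in all 3 Nrf2 libraries than in any LacZ library. Groups did not overlap, in either direction, in 6736 of all genes tested.

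The largest losses were those of matrix genes. *Fn1*, fibronectin, had an authors' mean of 102400.2 in LacZ and 45705 in Nrf2, a log2 ratio of -1.16, and was not tested because its reads split in more than 1 way. *Col1a1*, the main chain of type I collagen, had 91875, 92005 and 92394 normalized counts in LacZ and 52222, 48182 and 49628 in Nrf2 (log2 ratio -0.88, adjusted p = 5.40e-14). *Col3a1* fell from 26672 to 13399. *Sparc*, a collagen-binding matricellular protein, and *Col4a1*, a basement membrane collagen, completed the 5 largest losses at log2 ratios of -0.39 and -0.54, short of the fold.

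In the list of Nrf2 and its regulators, 5 of 10 genes tested rose, 0 fell, and the median log2 ratio was 0.67. That count and median include the overexpressed *Nfe2l2* itself, whose rise was set by the design. The other risen genes of the list were *Bach1*, *Sqstm1*, *Mafg* and *Keap1*. *Keap1* had 485, 498 and 499 normalized counts in LacZ and 872, 865 and 801 in Nrf2, a 1.71-fold difference (adjusted p = 1.37e-08). *Bach1*, a repressor that competes for antioxidant response elements, had 122, 123 and 132 in LacZ and 299, 339.8 and 311 in Nrf2, a 2.52-fold difference. *Sqstm1* encodes the autophagy receptor p62, which binds Keap1. It rose 2.40-fold, from 4883 to 11729.5 (adjusted p = 5.40e-14). Among the small Maf genes *Mafg* rose 1.91-fold, while *Maff* and *Mafk* had log2 ratios of 0.18 and -0.19. *Cul3* and *Btrc*, ubiquitin ligase parts that act on Nrf2, had log2 ratios of 0.11 and 0.44, and *Gsk3b*, a kinase that marks Nrf2 for *Btrc*, had 0.56, none of them past the fold. The groups did not overlap in any of the risen genes, as in 6736 of all genes tested.

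In glutathione synthesis and recycling, 7 of 13 genes rose and 1 fell, at a median log2 ratio of 1.02. Both subunits of the enzyme that makes the first and limiting step rose. The modifier subunit *Gclm* had 316, 279 and 333 normalized counts in LacZ and 1535, 1475 and 1448 in Nrf2, 4.81-fold (adjusted p = 1.51e-13). The catalytic subunit *Gclc* had 1563, 1638 and 1616 in LacZ and 3257, 3384 and 3119 in Nrf2, 2.03-fold (adjusted p = 1.04e-11). *Slc7a11*, the cystine importer that supplies the pathway, rose 4.30-fold from 437 to 1881. Its partner chain *Slc3a2* had 3885 and 2887, a log2 ratio of -0.43. *Gss*, glutathione synthetase, rose 3.43-fold and *Gsr*, the reductase that regenerates glutathione, 3.44-fold. *Ggt1*, which breaks down extracellular glutathione, and *Glrx*, glutaredoxin, rose 4.31-fold and 2.07-fold. *Chac1*, which degrades glutathione inside the cell, was the member that fell, from 488, 524 and 504 normalized counts in LacZ to 300.1, 249 and 296 in Nrf2 (log2 ratio -0.84, adjusted p = 1.66e-07). LacZ and Nrf2 libraries did not overlap in these genes, as in 6736 of all genes tested.

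Glutathione S-transferases, which join glutathione to electrophiles, rose in 9 of 16 genes tested and fell in 0, and their median log2 ratio of 1.81 was the highest of the 39 lists. *Gstp1*, the most abundant of them in counts, had 1348, 1218 and 1404 normalized counts in LacZ and 6949, 7054 and 7047 in Nrf2, 5.30-fold (adjusted p = 3.46e-16). *Gsta1* rose 6.36-fold from 153 to 970.2 and *Gstm1* 6.55-fold from 79.2 to 519. *Gsta3* had 1.01, 4.52 and 4.77 in LacZ and 42.5, 47.5 and 40.2 in Nrf2. Alpha and mu class genes resemble their paralogs closely in sequence, so how much of the rise belongs to each is uncertain.

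Among thioredoxins and peroxiredoxins 6 of 16 genes rose and 0 fell, at a median log2 ratio of 0.28. *Srxn1*, sulfiredoxin, which restores oxidized peroxiredoxins, had 642, 619.9 and 707 normalized counts in LacZ and 4449.5, 4537 and 4475 in Nrf2, 6.84-fold (adjusted p = 2.34e-16). *Txnrd1*, the cytosolic thioredoxin reductase, rose 3.49-fold from 2271 to 7919.6, and its substrate *Txn1* rose 1.65-fold. *Prdx1*, *Prdx6* and the mitochondrial *Prdx3* rose 3.11-fold, 1.75-fold and 1.61-fold. Of the mitochondrial partners, *Txnrd2* and *Txn2* had log2 ratios of -0.09 and 0.23. *Txnip*, which binds and inhibits thioredoxin, had 2442 in LacZ and 1801 in Nrf2, a log2 ratio of -0.44, and *Sesn2*, a stress-induced partner of peroxiredoxins, had -0.56. Both stopped short of the fold, and with means scaled to equal sums *Sesn2* passed it.

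Of 10 genes that remove superoxide or peroxide, 4 rose and 2 fell, at a median of 0.51. *Cat*, catalase, had 1708, 1379 and 1595 normalized counts in LacZ and 6321, 6393 and 6095 in Nrf2, 4.02-fold (adjusted p = 5.40e-14). *Sod2*, the mitochondrial superoxide dismutase, had 1082, 1243 and 1022 in LacZ and 2479, 2474 and 2434 in Nrf2, 2.21-fold. *Gpx2* and the secreted *Gpx3* rose 5.60-fold and 1.67-fold. The fallen genes were *Sod3*, the extracellular dismutase (log2 ratio -1.20), and *Gpx7*, a peroxidase of the endoplasmic reticulum (-0.83). *Sod1*, *Gpx1* and *Gpx4*, the abundant cytosolic enzymes, had log2 ratios of 0.54, 0.47 and 0.48, short of the fold in each case.

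**Figure D2:**
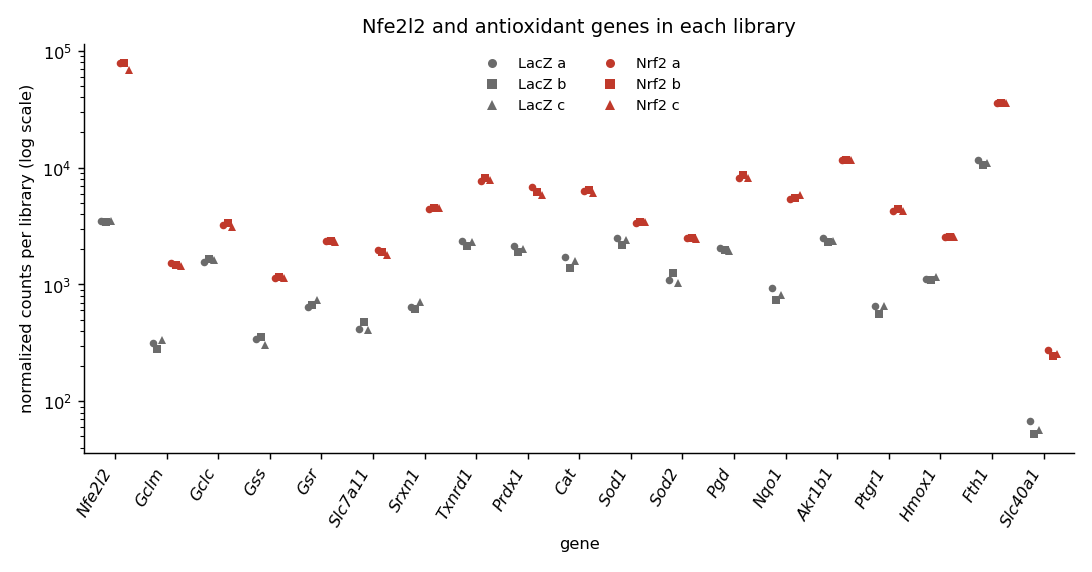
Normalized counts (log scale) of *Nfe2l2* and 18 antioxidant and iron genes in each of the 6 libraries, LacZ in grey and Nrf2 in red, with the marker shape giving library a, b or c. In each gene shown the Nrf2 dots lie above the LacZ dots, as for *Srxn1* with 619.9 to 707 in LacZ and 4449.5 to 4537 in Nrf2; *Sod1* is the gene of the plot that did not pass the fold.

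Enzymes that supply NADPH, the reductant used by both systems, were mixed: 7 of 21 rose, 1 fell, and the median log2 ratio was 0.09, or 0.04 to 0.15 with a library left out. Their sum had a log2 ratio of 0.81. *Pgd*, an enzyme of the pentose phosphate pathway, had 2063, 1954 and 1931 normalized counts in LacZ and 8123, 8718 and 8177 in Nrf2, 4.21-fold (adjusted p = 9.18e-16). *Taldo1*, transaldolase, rose 3.94-fold and *Tkt*, transketolase, 1.94-fold. Of the same pathway, *Pgls*, *Rpia* and *Rpe* had log2 ratios of -0.02, 0.01 and -0.03. Cytosolic malic enzyme *Me1* rose 3.60-fold, cytosolic isocitrate dehydrogenase *Idh1* 2.77-fold, and mitochondrial NAD kinase *Nadk2* 1.82-fold. The mitochondrial *Idh2* and *Nnt* had 0.30 and 0.02, and *Aldh1l2*, a mitochondrial folate enzyme, fell by 1.00 on the log2 scale.

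Of 31 genes for the detoxification of quinones, carbonyls and aldehydes, 11 rose and 1 fell, at a median log2 ratio of 0.36. *Nqo1*, the quinone reductase most used as a readout of Nrf2, had 932, 731 and 820.1 normalized counts in LacZ and 5409, 5518 and 5802 in Nrf2, 6.74-fold (adjusted p = 5.06e-15). *Akr1b1*, aldose reductase, had 2523, 2293 and 2371 in LacZ and 11586, 11673 and 11581 in Nrf2, 4.85-fold. *Ptgr1*, which reduces lipid-derived enones, rose 6.93-fold, *Akr1b8* 5.55-fold and *Aox1*, aldehyde oxidase, 5.72-fold. Aldo-keto reductases are paralogs, and their single values are uncertain for that reason. *Ugt1a6*, a glucuronosyltransferase that shares exons with its family, rose 1.84-fold. *Aldh1a2*, which makes retinoic acid, was the member that fell (log2 ratio -1.40, adjusted p = 7.06e-06). *Nqo2* and *Ephx1*, microsomal epoxide hydrolase, had log2 ratios of 0.19 and -0.42, and *Cyp1a1* had -0.14. Among ABC efflux pumps 3 of 14 rose and 1 fell, at a median of 0.06. That median was 0.10 without LacZ c and 0.28 at a minimum mean of 100. *Abcc4* and *Abcc1*, which export conjugates, rose 2.83-fold and 1.81-fold, and *Abcb1b*, a multidrug pump, fell (log2 ratio -0.70).

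In heme breakdown and iron handling 10 of 20 genes rose and 1 fell, at a median of 0.61. *Hmox1*, heme oxygenase, had 1122, 1083 and 1168 normalized counts in LacZ and 2545, 2559.8 and 2525 in Nrf2, 2.26-fold (adjusted p = 1.64e-12). *Blvrb*, biliverdin reductase B, rose 3.75-fold. *Slc40a1*, the iron exporter ferroportin, had 67.6, 52.0 and 57.2 in LacZ and 275, 244 and 253 in Nrf2, 4.37-fold. *Tfrc*, the receptor that brings iron in with transferrin, also rose, from 4619.7 to 8159, and so did the enzymes that begin and end heme synthesis, *Alas1* (1.80-fold) and *Fech* (2.06-fold). *Hfe2*, which encodes hemojuvelin, a coreceptor of iron sensing expressed in muscle, rose 8.19-fold from 86.5 to 709. The ferritin light chain *Ftl1* had a log2 ratio of 0.16, against 1.70 for the heavy chain *Fth1*. *Cp*, the copper ferroxidase ceruloplasmin, fell from 208, 391 and 218 to 182, 163 and 156. LacZ b was its highest library, and without LacZ b the log2 ratio of Cp was -0.35 and the call was lost, as it also was without Nrf2 b or Nrf2 c. Of 7 metallothionein and zinc transport genes, 3 rose, among them *Mt1a* (2.47-fold) and the zinc and iron importer *Slc39a8* (1.88-fold).

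All 33 subunit genes of the 26S proteasome had a higher mean in Nrf2, with log2 ratios from 0.05 to 1.15 and a median of 0.31, but only 7 passed the fold. *Psmd6*, a lid subunit, had 1286, 1223 and 1221 normalized counts in LacZ and 2774, 2783 and 2702 in Nrf2, 2.21-fold (adjusted p = 1.64e-12). *Psmd11* and the core subunit *Psma5* rose 1.83-fold and 1.76-fold. With no fold required, limma called 29 of the 33 higher and 0 lower. In autophagy and lysosome 3 of 34 genes rose (8.82%, against 8.30% of all genes tested), the Atg8 family members *Gabarapl1* and *Gabarapl2* and the glycogen-degrading *Gaa*, and *Ctsz*, cathepsin Z, fell (2.94%, against 8.89%), at a median of 0.07. In the heat shock list 5 of 17 rose and 0 fell, led by the small heat shock proteins *Hspb1* (1.77-fold) and *Hspb8* (1.69-fold) and their partner *Bag3* (1.63-fold). Without LacZ b the number in the heat shock list was 3.

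Genes of the Atf4 stress response, which many cells switch on when amino acids run short, mostly went down. *Slc7a11* was the member that rose. Of 27 tested 9 fell and 1 rose, with a median of -0.49, and 21 were lower by limma's adjusted p at any fold. *Asns*, asparagine synthetase, had 1692, 1904 and 1875 normalized counts in LacZ and 1004, 965 and 981 in Nrf2 (log2 ratio -0.89, adjusted p = 5.94e-10). *Phgdh*, the first enzyme of serine synthesis, fell from 839.6 to 468, and *Trib3* and *Stc2* fell by 1.05 and 1.37 on the log2 scale. Chaperones of the endoplasmic reticulum and genes of its degradation pathway had a median of -0.08. Of the 23 tested, 1 rose and 1 fell (4.35% each, against 8.30% and 8.89% of all genes tested). The most abundant of them in counts, *Calr*, had a log2 ratio of -0.07.

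Glycolysis was the metabolic list with the most risen genes, 13 of 25 with 0 fallen and a median of 0.60. *Slc2a1*, the basal glucose transporter, had 913, 979.6 and 950.1 normalized counts in LacZ and 1947, 2082 and 1895 in Nrf2, 2.08-fold (adjusted p = 4.90e-11). *Gpi*, the isomerase at the branch to the pentose phosphate pathway, rose 1.89-fold from 4021 to 7606, and *Pkm*, pyruvate kinase, 1.84-fold from 2294 to 4221. *Aldoc* had 25.2, 56.6 and 41.7 in LacZ and 81.7, 86.3 and 89.3 in Nrf2. The Nrf2 libraries were the higher ones in each of these genes, and groups did not overlap, in either direction, in 6736 of all genes tested. Without LacZ b the list had 10 risen genes and a median of 0.52.

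The lipid lists are given with limma's calls at any fold beside the calls past the fold. Over all 10669 genes tested the calls at any fold were 3045 higher and 2754 lower. Of 32 genes for fatty acid uptake and oxidation 5 rose and 0 fell, with a median of 0.30, and without LacZ b 2 rose. By limma's adjusted p at any fold 18 were higher and 2 lower. *Cpt2*, the inner carnitine palmitoyltransferase, and *Ppard*, a nuclear receptor that controls fat oxidation, rose 1.80-fold and 1.94-fold. Of 22 genes for lipogenesis and triglyceride storage 5 rose and 0 fell, with a median of 0.16, and without LacZ b 7 rose at a median of 0.10. At any fold 9 were higher and 2 lower. *Dgat2*, which makes triglyceride, had 394, 386 and 393 normalized counts in LacZ and 2108, 2089.8 and 2113 in Nrf2, 5.38-fold (adjusted p = 3.48e-15). *Cidea* and *Plin2*, proteins of the lipid droplet surface, rose 1.93-fold and 1.65-fold. Genes of cholesterol synthesis and uptake had a median of 0.31 and 2 of 23 risen (8.70%, against 8.30% of all genes tested). At any fold 16 of them were higher and 1 lower. Of 42 nuclear genes of the respiratory chain 0 rose and 0 fell by limma and the fold, at a median of 0.21, and 31 of them were higher by limma's adjusted p at any fold. Cytosolic ribosomal protein genes had a median of 0.03 over 57 genes, with 1 risen and 0 fallen, and without LacZ b a median of 0.01 with 2 fallen.

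**Figure D3:**
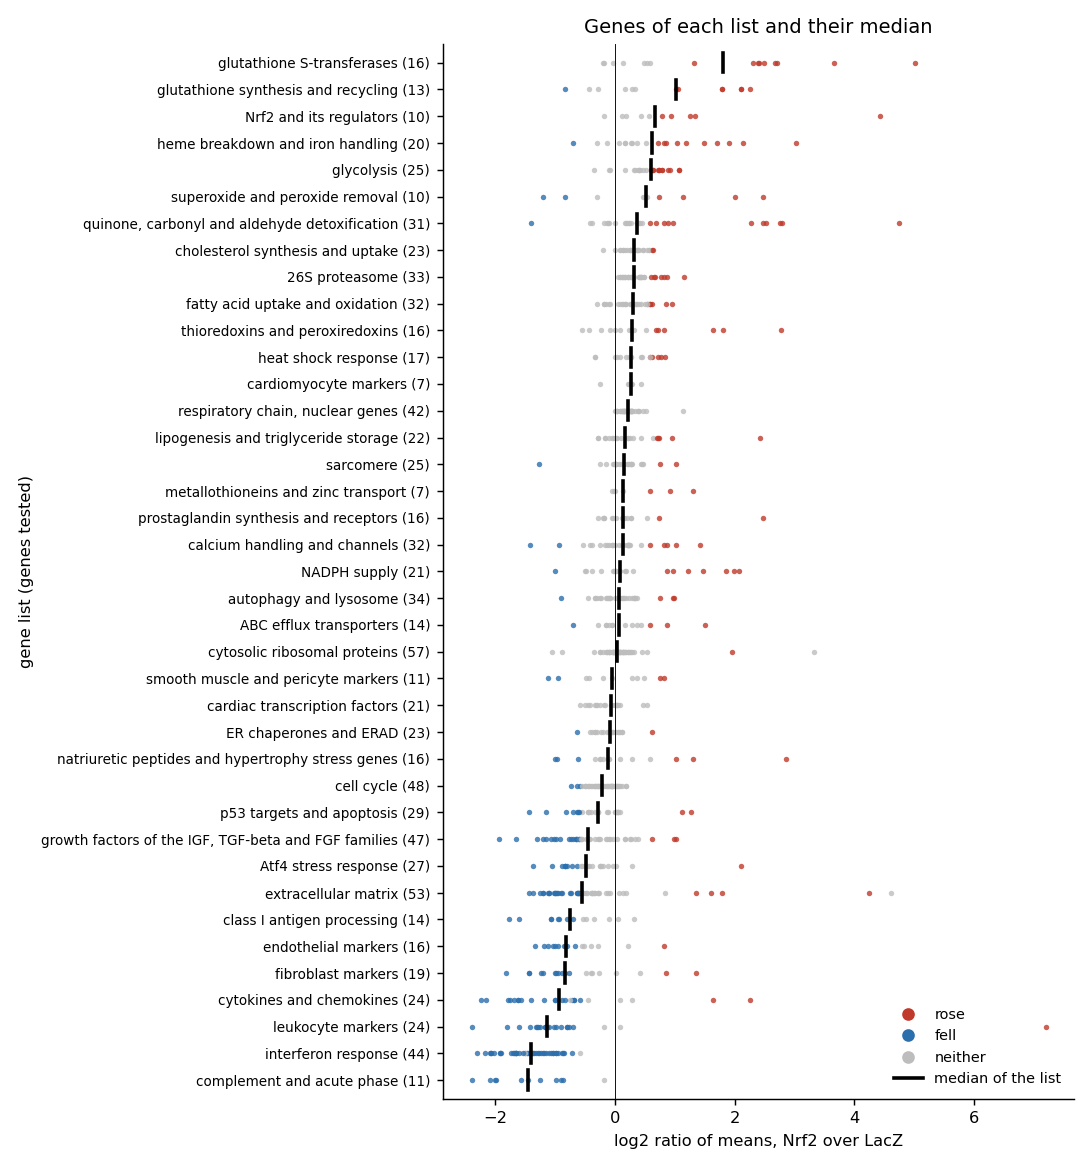
Log2 ratio of the Nrf2 mean to the LacZ mean for the tested genes of each of 39 lists, with 1 dot per gene, red for risen, blue for fallen and grey for neither, and a black bar at the median of the list; the number of genes tested is in brackets. Medians run from -1.45 for complement and acute phase genes to 1.81 for glutathione S-transferases, around a median of 0.00 for all genes tested.

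Interferon-stimulated genes were the list that fell most completely, 43 of 44 with 0 risen and a median of -1.40. The other member tested, *Irf1*, also had a lower mean but was not past the fold, at the highest log2 ratio of the list, -0.58. *Mx2*, a dynamin-like antiviral GTPase, had 3780.1, 4937 and 3906 normalized counts in LacZ and 957, 853 and 732 in Nrf2 (log2 ratio -2.31, adjusted p = 1.31e-11). *Irf7*, the transcription factor that amplifies type I interferon, had 3590.4, 4648 and 3929 in LacZ and 1058, 934 and 902 in Nrf2 (-2.07). *Rsad2* and *Gbp5*, antiviral effectors, fell from 1213 to 289 and from 585 to 129. The most abundant member in counts, the secreted glycoprotein *Lgals3bp*, fell from 7508 to 3274 (log2 ratio -1.20). The 2'-5' oligoadenylate synthetases *Oas1a* and *Oas2* fell by 2.03 and 2.10 on the log2 scale, with the reserve that they are paralogs. In none of these genes did the groups overlap, as in 6736 of all genes tested. Without LacZ b the list again had 43 fallen genes, at a median of -1.33, and its summed normalized counts were 53702, 63758 and 56382 in LacZ and 23959, 22450.4 and 21185 in Nrf2.

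In class I antigen processing 8 of 14 genes fell and 0 rose, at a median of -0.75, and without LacZ b 9 fell at a median of -0.74. *B2m*, the shared light chain of class I molecules, had 10006, 12159.9 and 10714 normalized counts in LacZ and 6032, 5442 and 5645 in Nrf2 (log2 ratio -0.94). The peptide transporter *Tap1* fell from 1209.9 to 578 and the immunoproteasome subunit *Psmb8* from 139 to 45.9. The class I heavy chain genes *RT1-S3* and *RT1-N3* fell by 1.77 and 1.08, with the reserve that RT1 genes are close paralogs.

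Of 24 cytokines and chemokines tested 18 fell and 2 rose, at a median of -0.94, and without LacZ b 16 of 23 fell at a median of -0.79. *Ccl7*, a monocyte attractant, had 302, 497 and 306 normalized counts in LacZ and 89.2, 81.0 and 76.5 in Nrf2 (log2 ratio -2.16, adjusted p = 2.49e-07). *Cxcl12*, a stromal chemokine, had 670.0, 685 and 651 in LacZ and 196, 174 and 210.0 in Nrf2 (-1.79, adjusted p = 1.49e-11). *Csf1*, the macrophage growth factor, fell from 2077 to 1169. The members that rose were *Il7*, a lymphocyte growth factor, at 8.07, 20.4 and 14.3 in LacZ and 74.2, 65.1 and 65.7 in Nrf2, and the B cell attractant *Cxcl13*, at 4.04, 22.6 and 8.34 in LacZ and 40.0, 36.1 and 33.4 in Nrf2. Of complement and acute phase genes 10 of 11 fell and 0 rose, and the median of -1.45 was the lowest of the lists. Without LacZ b 9 fell and the median was -1.30, and the interferon list was then the lowest at -1.33. *C1r* and *C1s*, proteases of the classical pathway, fell by 1.45 and 2.09, and the pattern recognition protein *Ptx3* had 279.5, 419 and 297 in LacZ and 72.5, 44.9 and 71.6 in Nrf2, the lowest ratio of any gene with an average mean of at least 100. *Serping1*, the inhibitor of the C1 proteases, fell by 2.00 on the log2 scale.

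Leukocyte, fibroblast and endothelial markers mostly fell, while smooth muscle and pericyte markers were mixed and their sum was higher in Nrf2. In these bulk libraries fewer cells of a type and less RNA per cell cannot be told apart. Of 24 leukocyte markers tested 21 fell and 1 rose, at a median of -1.14, and without LacZ b 19 fell at a median of -0.94. The 29 markers in the table summed to 3852, 5644 and 3877 normalized counts in LacZ and 2346, 2467 and 2321 in Nrf2. *Lyz2*, lysozyme, was the most abundant of them, at 687, 995 and 668 in LacZ and 254, 263 and 257 in Nrf2 (log2 ratio -1.60, adjusted p = 4.60e-08). *Cd14*, a macrophage coreceptor, and *Fcgr2b*, an inhibitory antibody receptor, fell from 151 to 55.7 and from 94.6 to 18.1. *Cd3e* and *Cd79b*, which define T and B cells, were at 0 in LacZ and had means of 0.327 and 1.21 in Nrf2. *Cd52* was the marker that rose and is described with the near silent genes, and *Csf1r*, the receptor of macrophage growth factor, had 283 and 299.6, a log2 ratio of 0.08.

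Of 19 fibroblast markers 11 fell and 2 rose, at a median of -0.84, and without LacZ b 11 fell at a median of -0.86. Their sums were 151051, 155339 and 150872 normalized counts in LacZ and 95645, 90248 and 94157 in Nrf2, most of it *Col1a1*, and 0 of the markers were at 0 in a group. *Tcf21*, a transcription factor of cardiac fibroblasts, had 63.6, 84.8 and 83.4 in LacZ and 24.2, 26.4 and 14.7 in Nrf2 (log2 ratio -1.83). *Lum*, lumican, had 204, 476 and 221 in LacZ, highest in LacZ b, and 118, 91.5 and 122 in Nrf2. *Gsn*, gelsolin, and *Mfap5*, a microfibril protein, rose 1.80-fold and 2.57-fold. Of 16 endothelial markers tested 10 fell and 1 rose, at a median of -0.82, with sums of 6770.0, 6901 and 6989 in LacZ and 4267, 3981 and 4487 in Nrf2. Their most abundant gene was *Eng*, endoglin, which fell from 2911 to 1503 and *Tie1*, a receptor of endothelial cells, fell from 221 to 101. *Egfl7* was the endothelial marker that rose. Smooth muscle and pericyte markers had 2 of 11 risen and 2 fallen and sums of 59649.6, 53561 and 56419 in LacZ and 74036, 75707 and 76902 in Nrf2. *Acta2*, the most abundant of them, had a log2 ratio of 0.49. *Cnn1* and *Des*, the latter also a cardiomyocyte protein, rose 1.77-fold and 1.68-fold. The pericyte markers *Pdgfrb* and *Mcam* fell by 1.13 and 0.95 on the log2 scale. *Pdgfrb* had 1333, 1848 and 1401 in LacZ, highest in LacZ b, and 684, 643 and 770.3 in Nrf2. The part of leukocytes, fibroblasts, endothelial cells and pericytes in the fall of immune and matrix genes was not tested.

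**Figure D4:**
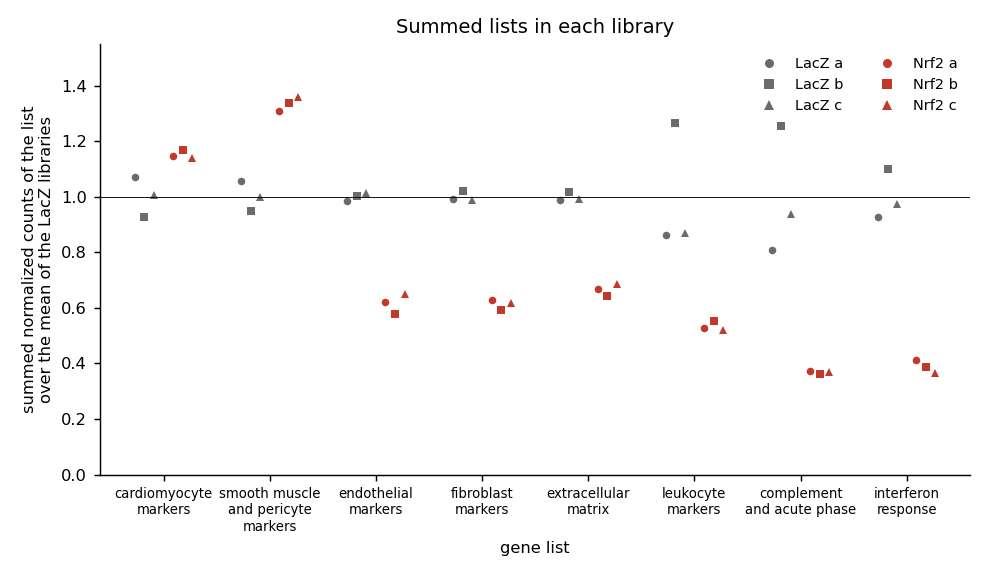
Normalized counts summed over the genes of 8 lists in each library, divided by the mean of the LacZ libraries for that list, with LacZ in grey, Nrf2 in red and the marker shape giving library a, b or c. LacZ b is the highest library in leukocyte markers, at a sum of 5644, and in complement genes, at 5525, and the Nrf2 libraries lie below the LacZ libraries in these lists, in endothelial, fibroblast and matrix genes and in the interferon response.

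Of 53 extracellular matrix genes tested, *Fn1* apart, 24 fell and 4 rose, at a median of -0.55. Without LacZ b 23 fell and 4 rose, at a median of -0.53. *Tnc*, tenascin C, had 8682, 9498 and 8822 normalized counts in LacZ and 3738, 3789 and 3856 in Nrf2 (log2 ratio -1.25, adjusted p = 1.51e-13). *Col14a1*, a fibril-associated collagen, fell by 1.37 on the log2 scale and *Dcn*, decorin, by 1.20. *Dcn* had 643, 976 and 652 in LacZ, highest in LacZ b, and 351, 319 and 319 in Nrf2. The 4 that rose were *Mmp3*, *Mmp13*, *Col11a1* and *Mfap5*. *Mmp3*, stromelysin, had 48.4, 63.3 and 48.9 in LacZ and 1007, 954 and 1094 in Nrf2, 19.0-fold (adjusted p = 1.67e-12). *Col11a1*, a minor fibrillar collagen, had 1103, 989 and 1056 in LacZ and 3578, 3671 and 3571 in Nrf2, 3.44-fold. *Grem1*, a secreted BMP antagonist outside the list, was among the 10 lowest ratios of genes with an average mean of at least 100, at 1253, 1523 and 1184 in LacZ and 327, 289.6 and 389.6 in Nrf2.

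Lists of heart muscle genes had medians near 0 but held single genes that moved. Sarcomere genes had a median of 0.15, and 0.06 without LacZ b, whose sum of 249628 was below the 282189 and 268074 of LacZ a and LacZ c. Of 25 sarcomere genes 2 rose and 1 fell, with 13 higher and 3 lower by limma's adjusted p at any fold. The fallen gene was *Tcap*, which ties titin at the Z-disc, at 291, 297 and 249 normalized counts in LacZ and 113, 122 and 108 in Nrf2 (log2 ratio -1.28, adjusted p = 4.19e-08). Of 32 genes for calcium handling and ion channels 5 rose (15.6%) and 2 fell (6.25%), at a median of 0.13. *Sln*, sarcolipin, an inhibitor of the calcium pump, had 49.4, 47.5 and 57.2 in LacZ and 116, 165 and 132 in Nrf2, and the pacemaker channel *Hcn4* rose 2.02-fold. *Gja5*, the gap junction protein connexin 40, fell from 141 to 52.5. The pump itself, *Atp2a2*, had a log2 ratio of 0.21. Among natriuretic peptides and hypertrophy stress genes 3 of 16 rose and 3 fell, 18.8% each. *Nppa*, atrial natriuretic peptide, had 44534 in LacZ and 38548 in Nrf2, a log2 ratio of -0.21. *Uchl1*, a deubiquitinase on that list, had 491, 415 and 443 in LacZ and 3157, 3431 and 3164 in Nrf2, 7.22-fold (adjusted p = 5.06e-15). Of 21 cardiac transcription factors 0 rose and 0 fell by limma and the fold, with 2 higher and 7 lower by limma's adjusted p at any fold, against 3045 and 2754 of the 10669 genes tested. Without LacZ b 1 of them fell.

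Genes almost silent in LacZ were taken as those with a LacZ mean under 2 and an Nrf2 mean of at least 20, of which there were 31 among 2121 genes with a LacZ mean under 2. The rule itself uses both means, so their differences are a description. Of the 31, 7 had no read in any LacZ library, 17 had 1 to 3 reads over the group and 7 had more. A group with no read was set to a floor of 3 reads, a LacZ mean of 1.11. For the others the ratio is given with its exact 95% counting interval, which like the floor covers counting error only, because reads without molecular identifiers are not independent molecules.

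*Zfp352*, a zinc finger gene, had 0 reads in all LacZ libraries and 215, 235 and 166 reads in Nrf2 a, b and c, at least 165-fold higher. *Mepe*, a phosphoglycoprotein of bone matrix, had 0 in LacZ and 114, 128 and 102 reads in Nrf2, at least 92.4-fold higher. *Cers3*, a ceramide synthase of skin and testis, had 128, 121 and 94 reads and was at least 91.7-fold higher. Each Nrf2 library thus held reads of these genes, though every Nrf2 library was also deeper than every LacZ library. Genes with no LacZ read and fewer reads in Nrf2 were *Grin2b*, an NMDA receptor subunit, at least 28.1-fold higher, *Rassf6* at least 18.7-fold, and *Apcs*, serum amyloid P, at least 18.4-fold. The reads they gave in a single Nrf2 library ranged from 20 to 43.

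*Crisp1* had 2 reads in LacZ and 765, 661 and 697 reads in Nrf2, a ratio of 943 (counting interval 237 to 7095). *RGD1309870* had 2 reads in LacZ and 434, 413 and 366 in Nrf2, a ratio of 537 (136 to 4056). For *Brinp3*, a protein of developing neurons, the ratio was 168 (48.4 to 1457). *Cd52*, a surface glycoprotein of leukocytes, had 2, 0 and 0 reads in LacZ and 110, 119 and 102 in Nrf2, a ratio of 147 (36.8 to 1110.1). It rose while 21 of the other leukocyte markers fell. *Aknad1* had a ratio of 142 (46.0 to 657), *RGD1304770* of 137 (37.2 to 1123) and *Kcna1*, a neuronal potassium channel, of 77.9 (19.6 to 599). *Slc17a3*, an organic anion and urate transporter of kidney, had 5 reads in LacZ and 87, 98 and 83 in Nrf2, 43.4-fold (18.4 to 135). *Gsta2* had 5 reads and 74, 59 and 63, 32.4-fold (13.4 to 98.8), uncertain because of its paralogs. *LOC498316* was 43.2-fold higher (13.9 to 202) and *Lgsn*, a lens protein related to glutamine synthetase, 27.5-fold (10.9 to 106).

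Not every gene that met the rule was high in all Nrf2 libraries. *Ogn*, osteoglycin, had 4, 0 and 1 reads in LacZ and 14, 131 and 1 in Nrf2, so that most of its mean came from Nrf2 b. In the other direction the table held 1 gene with an Nrf2 mean under 2 and a LacZ mean of at least 20. In all, 512 genes had no read in LacZ and 343 had none in Nrf2, where the libraries were deeper.

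**Figure D5:**
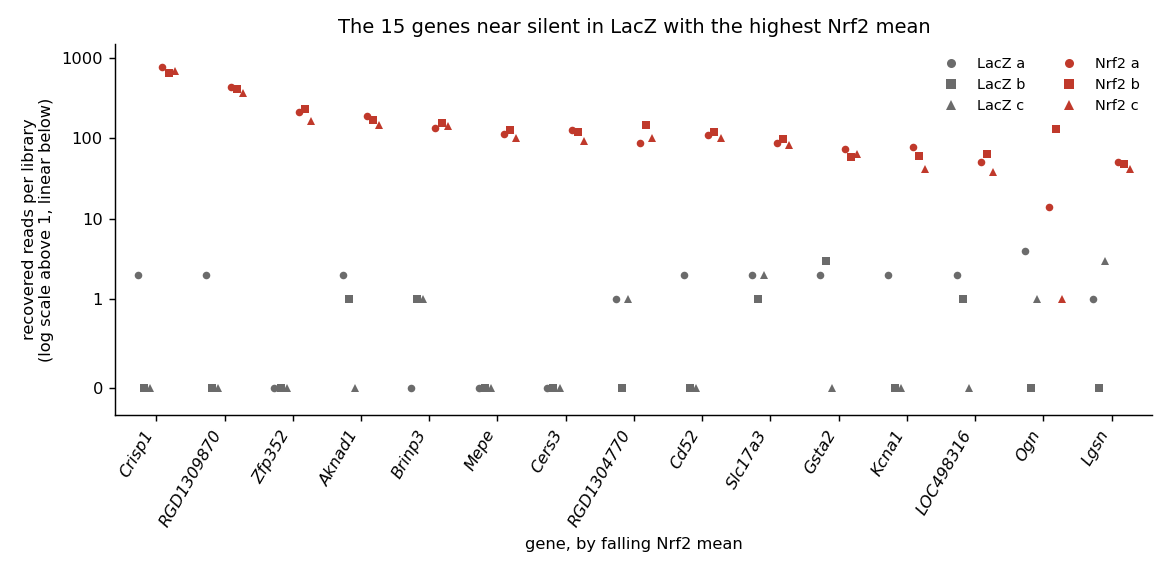
Recovered reads (log scale above 1, linear below) of the 15 genes with the highest Nrf2 mean among the near silent genes in each of the 6 libraries, LacZ in grey and Nrf2 in red, ordered by the Nrf2 mean, with the marker shape giving library a, b or c. LacZ libraries hold 0 to 4 reads per gene while the Nrf2 libraries of *Crisp1* hold 661 to 765, and *Ogn* shows a single high library with 131 reads.

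Nrf2 and Nrf1 libraries were set beside each other in their own table, where 1022 of 10571 genes tested were higher in Nrf2 at the same fold and adjusted p (9.67%) and 473 were lower (4.47%). The comparisons of either factor with LacZ share the LacZ libraries, so only this direct test is used. *Nqo1* had 1212, 1175 and 1171 normalized counts in the Nrf1 libraries and 5621, 5729 and 6033 in the Nrf2 libraries of that table (log2 fold change 2.28, SE 0.04, adjusted p = 5.83e-19). *Gclm*, *Srxn1*, *Txnrd1* and *Cat* were higher in Nrf2 by 0.84, 1.06, 1.44 and 0.89, while *Hmox1* had 2881 in Nrf1 and 2643 in Nrf2. *Slc7a11* had 373 and 1954 and *Dgat2* 257 and 2186, the latter at a log2 fold change of 3.08 (adjusted p = 1.48e-17). Near silent genes differed in Nrf1, where *Zfp352* had a mean of 0, *Crisp1* 3.88, *Kcna1* 8.54 and *LOC498316* 24.3. In the 26S proteasome list 24 of 33 genes were lower in Nrf2 and 0 were higher, among them *Psma5* with 3687 in Nrf1 and 2058 in Nrf2. In the interferon list 37 of 43 genes were higher in Nrf2 and 0 lower, and *Mx2* had 102, 121 and 156 in Nrf1 and 994, 886 and 761 in Nrf2. Of 53 extracellular matrix genes 24 were higher in Nrf2 and 4 lower. *Uchl1* was lower in Nrf2, at 6645 in Nrf1 and 3378 in Nrf2.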

How the data were processed

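The signal is the deposited group mean of normalized counts. Per the authors' methods, 75-bp single-end stranded reads were checked with FastQC 0.11.4, aligned to Rnor_6.0 with HISAT2 2.0.4, freed of duplicates with SAMtools 0.1.18 and counted with featureCounts 1.6.0. The methods name edgeR 3.20.5, while the column names have the layout of DESeq. The deposited tables also hold a fold change, its log2 and p-values before and after adjustment, none of them used.

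The authors' mean of a group is a sum of whole reads over 3 size factors. Solving the tables that hold the same group together gave 1 solution for 14678 of 14679 LacZ genes with 2 tables and 439 of 439 with 1 table, and for 14767 of 14767 and 353 of 356 Nrf2 genes. The recovery was tested on simulated data. The 6 genes of the table without recovered reads were *Fn1* and 5 with date-like symbols, 4 of which stand under repeated symbols and were not solved. Date-like symbols, 26 in number, were kept as deposited.

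Ratios are of the authors' means. The fold was 1.5 and the minimum average of both means 20. Tests used limma 3.58.1 with voom weights in R 4.3.3 on all recovered genes, with Benjamini-Hochberg adjusted p under 0.05, and the fit was tested on simulated data, where it missed part of the genes changed by just the fold, so a gene not called may still have changed. Python 3.11.15, numpy 2.4.6, scipy 1.17.1 and matplotlib 3.10.9 did the rest. In every list the genes tested had an average mean of at least 20.

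Named genes were *Nfe2l2*, the 10 highest and 10 lowest ratios at an average mean of at least 100, the 5 largest gains and losses, the 15 near silent genes with the highest Nrf2 mean, and, from each of 39 lists, up to 4 genes per direction and the most abundant gene, with all members of the redox lists. Genes outside this rule were picked with their values in view. The members and lists were chosen with earlier results of these data known.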

Additional observations from a re-analysis of the deposited data

How the results depend on the processing

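The counts moved with the thresholds. At a fold of 2 the genes past the fold were 382 higher and 363 lower, and 374 rose and 360 fell. With no minimum mean 2334 were higher and 2329 lower past the fold. At a minimum of 100, 605 were higher and 516 lower past the fold, and 601 rose and 513 fell, so that risen genes were then the more numerous. With no fold required limma gave 3045 higher and 2754 lower. With an Nrf2 mean of at least 50, 12 genes were near silent in LacZ. Re-centring shifted log2 ratios by 0.02 (866 higher, 1024 lower) and equal sums by 0.07 (759 and 1169, with 746 risen and 1105 fallen). With each library left out in turn, 866 to 958 were higher and 925 to 1037 lower past the fold, 831 to 906 rose, 870 to 984 fell, and 29 to 33 were near silent. Of 39 lists 23 had a median above that of all genes, and 23 or 24 did under the alternatives run, of which re-centring could not change it and equal sums was not run for lists. Of 351 alternative list medians 84 moved. Of 321 named genes with reads, 14 lost and 9 gained a call under some setting, and none reversed. Cholesterol synthesis had 2 risen genes and 4 without Nrf2 c. Alternatives for the limma calls, and leaving out libraries for lists, named genes and near silent genes, were chosen after seeing the data. No paired analysis was possible because the recovered libraries carry no replicate number. A planned count of promoter motifs was not run, because only mouse reference tables were given for rat cells.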

Other observations

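Growth factors of the IGF, TGF-beta and FGF families fell in 16 of 47 genes tested and rose in 3, at a median log2 ratio of -0.45. *Gdf6*, a BMP family ligand, had 154, 159 and 137 normalized counts in LacZ and 35.8, 43.1 and 38.3 in Nrf2 (log2 ratio -1.94, limma adjusted p = 2.93e-08). *Ltbp2*, a latent TGF-beta binding protein, fell from 2926 to 1183, and *Inhbb*, an activin subunit, fell from 172 to 74.8. *Areg*, the EGF receptor ligand amphiregulin, was on the list although its family is not among those named, and rose 2.03-fold. Of 16 prostaglandin genes 2 rose (12.5%, against 8.30% of all genes tested) and 0 fell, at a median of 0.13. By limma's adjusted p at any fold 7 were higher and 0 lower. The risen genes were *Akr1b8* and *Ptgs1*. *Ptgs1*, the constitutive cyclooxygenase, had 683, 661 and 659 in LacZ and 1104, 1087 and 1132 in Nrf2.

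Among p53 targets and apoptosis genes 7 of 29 fell and 2 rose, at a median of -0.29. *Casp4*, an inflammatory caspase, had 272, 321 and 292 normalized counts in LacZ and 111, 108 and 108 in Nrf2 (log2 ratio -1.44, adjusted p = 7.45e-09), and the death genes *Pmaip1* and *Bbc3* fell by 0.82 and 0.70 on the log2 scale. *Tigar*, which turns glucose toward the pentose phosphate pathway, rose 2.18-fold, and *Plk3*, a stress kinase, rose 2.42-fold. *Ccng1* and *Cdkn1a*, the p53 targets with the most counts, had log2 ratios of 0.03 and 0.05. Of 48 cell cycle genes 3 fell (6.25%, against 8.89% of all genes tested) and 0 rose. By limma's adjusted p at any fold 3 were higher and 25 lower, against 3045 and 2754 of the 10669 genes tested. The mitotic kinase *Plk1* fell from 272 to 163.

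*Pdcd5* had 95.9, 78.0 and 104 normalized counts in LacZ and 0 reads in every Nrf2 library, at least 103-fold lower against a floor of 3 reads, a mean of 0.898. In the table of Nrf1 and LacZ the *Pdcd5* mean in Nrf1 was 78.9. Means of some genes rested on single libraries. *Rps9* had 34.3, 30.5 and 42.9 in LacZ and 947, 35.2 and 101 in Nrf2. *Eln* had 2227, 2493 and 2294 in LacZ and 2409.8, 586 and 9469 in Nrf2. *Ndufa1* had 2.02, 0 and 304 in LacZ and 367, 298 and 4.91 in Nrf2.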
